A study of Oryza longistaminata with 9 samples.

Results

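ADP-glucose pyrophosphorylase (glucose-1-phosphate adenylyltransferase) joins glucose-1-phosphate and ATP into ADP-glucose and releases pyrophosphate. ADP-glucose is the glucosyl donor from which starch synthases build starch, and its formation is regarded as the committed step of starch synthesis in plants. The plant enzyme is assembled from small and large subunits, which are encoded by several genes expressed in different tissues and compartments, and starch is a reserve of the anther wall as well as of the maturing pollen grain. The genes described here were all those whose description in the gene table contained the name glucose-1-phosphate adenylyltransferase, which held for 4 of 46327 genes. They are BGIOSGA017490, BGIOSGA030039, BGIOSGA027135 and BGIOSGA009855, and for none of them does the table say whether it encodes a small or a large subunit.

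RNA-seq libraries came from isolated anthers of Oryza longistaminata, a perennial wild rice. The comparison was between anthers of 6-mm spikelets (Ls-6mm, stage 6, at which the wall layers enclose the locule) and anthers of 4-mm spikelets (Ls-4mm, stage 4, at which the primary sporogenous cells arise), with 3 libraries each. The stages were told apart by spikelet length alone, the labels name no treatment or genotype, and the later stage Ls-8.5mm was not analysed here. The sources used here do not state which plants each library was made from, and p-values therefore measure only the spread between libraries. The depth of the libraries was 17076800 to 21232663 counts in Ls-6mm and 14509449 to 16684146 counts in Ls-4mm. All 4 genes passed the filter on low counts, as did 23691 genes in all.

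All 4 genes were lower in Ls-6mm than in Ls-4mm, by very unequal amounts. BGIOSGA017490 fell to 18.6% of its Ls-4mm level, BGIOSGA027135 to 34.8%, BGIOSGA030039 to 50.3% and BGIOSGA009855 to 78.7%, in CPM, counts relative to the library size after TMM scaling (trimmed mean of M values). In edgeR's quasi-likelihood test with Benjamini-Hochberg adjustment over all tested genes, 4 of 4 were called lower at an adjusted p under 0.05. This count stands beside a contrast in which 80.6% of the tested genes were called, 38.6% lower and 42.0% higher in Ls-6mm. For each of the 4 genes every Ls-6mm library lay below every Ls-4mm library in CPM, as it did for 39.0% of the tested genes. The median log2 fold change of the 4 genes was -1.26, beside 0.04 over all tested genes. In whole anthers, fewer cells of a type and less RNA per cell cannot be told apart.

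**Figure D1:**
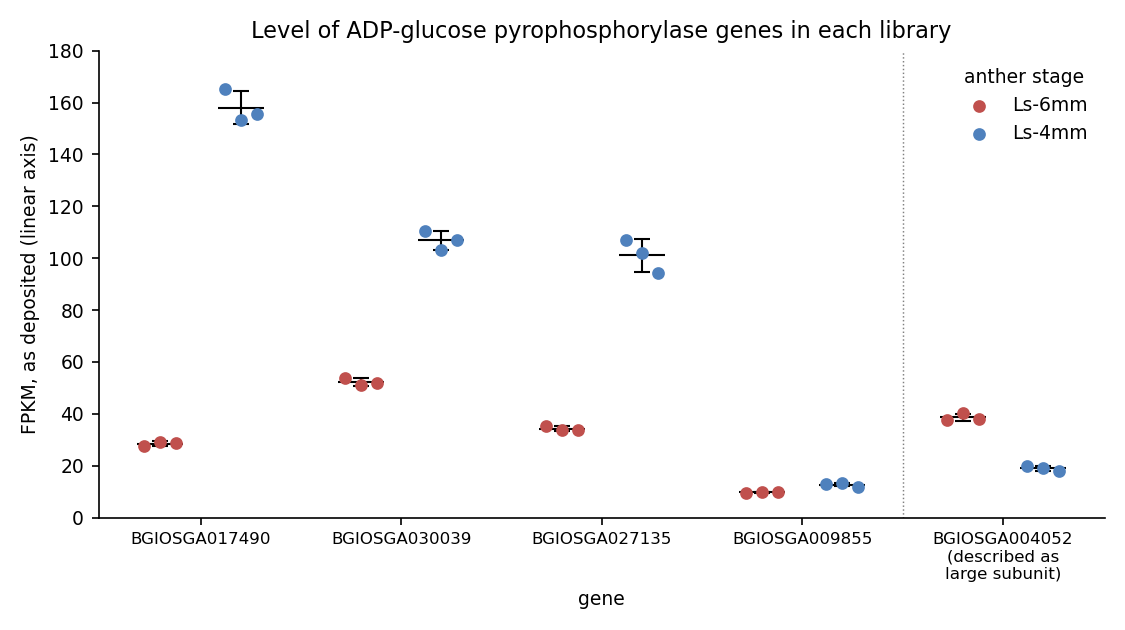
Deposited FPKM (fragments scaled by coding length and library size, linear axis) of each gene in each library. Points are libraries, Ls-6mm in red to the left and Ls-4mm in blue to the right, and bars are the mean and SD of 3 libraries. The 4 genes of the same description lie lower in Ls-6mm, from 27.7 to 29.26 against 153.3 to 165.2 FPKM for BGIOSGA017490, whereas BGIOSGA004052, right of the dotted line, lies higher.

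BGIOSGA017490, on the minus strand of chromosome 5 from 30219471 to 30222858 as the table lists it, had the highest level of the 4 genes in Ls-4mm and fell the most. It had 27.7, 29.26 and 28.67 FPKM in the Ls-6mm libraries, against 165.2, 153.3 and 155.7 FPKM in the Ls-4mm libraries. The stages were far apart: the highest Ls-6mm library was well below the lowest Ls-4mm library. These levels rested on 755, 966 and 760 counts in Ls-6mm and on 3985, 4234 and 4177 counts in Ls-4mm. The log2 fold change was -2.43 (SE 0.04, adjusted p = 7.15e-18, edgeR), and 525 of the 23691 tested genes had a lower one. Among genes with any count, its FPKM stood at the percentile 77.5 in Ls-6mm, against 96.7 in Ls-4mm.

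BGIOSGA030039, on the minus strand of chromosome 9 from 6767691 to 6771421, had the highest level of the 4 genes in Ls-6mm. Its FPKM was 53.78, 50.94 and 52.03 in Ls-6mm, against 110.4, 103.0 and 107.2 in Ls-4mm. Again no library of one stage reached into the range of the other. The spread within a stage was small, with a coefficient of variation of the CPM of 2.79% in Ls-6mm and 2.75% in Ls-4mm. Counting error alone gives 2.62% and 1.92% per library, so little of the Ls-6mm spread goes beyond it. Counts were 1418, 1627 and 1334 in Ls-6mm and 2576, 2750 and 2782 in Ls-4mm. The log2 fold change of -0.99 (SE 0.04, adjusted p = 6.11e-13, edgeR) lay just short of a 2-fold difference. The gene kept a place among the more abundant transcripts, at the percentile 87.2 in Ls-6mm and 94.7 in Ls-4mm.

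BGIOSGA027135, on the minus strand of chromosome 8 from 16746477 to 16750552, resembled BGIOSGA030039 in Ls-4mm and fell further. Its FPKM was 35.3, 33.79 and 33.6 in Ls-6mm, against 107.0, 102.1 and 94.18 in Ls-4mm. The Ls-4mm libraries were more scattered than those of Ls-6mm, the lowest being replicate 3, but all of them were above every Ls-6mm library. Behind these levels were 953, 1105 and 882 counts in Ls-6mm and 2556, 2793 and 2503 counts in Ls-4mm. The log2 fold change was -1.52 (SE 0.05, adjusted p = 2.11e-14, edgeR). Its percentile of FPKM was 80.7 in Ls-6mm and 94.4 in Ls-4mm.

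BGIOSGA009855, on the minus strand of chromosome 3 from 34318562 to 34322802, was the lowest of the 4 genes at both stages and changed the least. Its FPKM was 9.408, 9.901 and 9.751 in Ls-6mm, against 12.75, 13.28 and 11.95 in Ls-4mm. The stages did not overlap, but the gap between them was narrow. It was also the least deeply counted, with 251, 320 and 253 counts in Ls-6mm and 301, 359 and 314 counts in Ls-4mm. For these, counting error alone gives a coefficient of variation of 6.03% and 5.55% per library. The coefficient of variation of its CPM was 2.57% in Ls-6mm and 5.51% in Ls-4mm, no larger than counting error. The log2 fold change was -0.35 (SE 0.08, adjusted p = 0.00111, edgeR), and 8297 of the tested genes, or 35.0%, fell further. Its place among the genes with any count at each stage was nearly the same, at the percentile 57.8 in Ls-6mm and 60.8 in Ls-4mm.

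**Figure D2:**
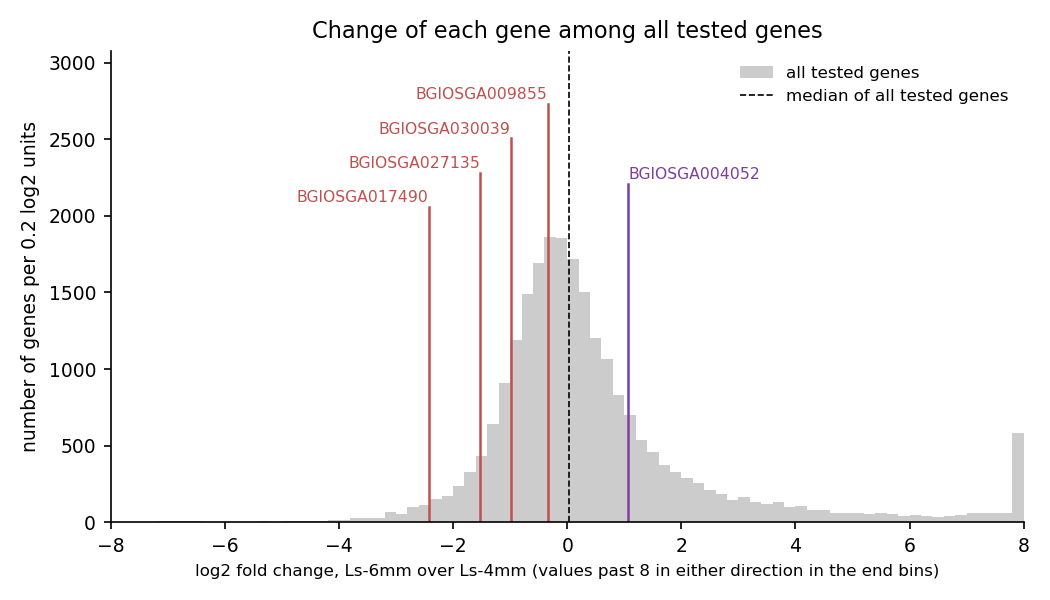
Histogram of the log2 fold change, Ls-6mm over Ls-4mm, of the 23691 tested genes (number of genes per bin, linear axis), with the 4 genes in red, BGIOSGA004052 in purple and the median of all tested genes dashed. BGIOSGA017490 lies at the percentile 2.22 of the distribution and BGIOSGA009855 at 35.0. Genes past the ends of the axis are counted in the end bins.

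A stricter threshold asked for an FDR no higher than 0.001 together with a 2-fold or larger difference. It called 13.3% of the tested genes lower, and 2 of the 4 genes, BGIOSGA017490 and BGIOSGA027135. BGIOSGA030039 missed it by its fold change alone, and BGIOSGA009855 by both its fold change and its adjusted p.

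The 4 genes together had 126.2, 123.9 and 124.1 FPKM in the Ls-6mm libraries, against 395.4, 371.7 and 369.0 FPKM in the Ls-4mm libraries. The sum thus averaged 124.7 ± 1.29 FPKM in Ls-6mm and 378.7 ± 14.51 FPKM in Ls-4mm (SD, n = 3 each), which is 32.9% of the Ls-4mm level. BGIOSGA017490 made up 51.0% of the fall in the sum, with a difference in mean FPKM of -129.5. BGIOSGA027135 made up 26.3% of it, BGIOSGA030039 21.5% and BGIOSGA009855 1.17%.

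Because the falls were unequal, the makeup of the sum was another one at each stage. BGIOSGA017490 held 22.9% ± 0.854 of the summed FPKM in Ls-6mm and 41.7% ± 0.469 in Ls-4mm (SD, n = 3 each). BGIOSGA030039 held 41.9% ± 0.752 in Ls-6mm and 28.2% ± 0.722 in Ls-4mm. The leading gene was thus BGIOSGA030039 in every Ls-6mm library and BGIOSGA017490 in every Ls-4mm library. BGIOSGA027135 held nearly the same share at both stages, 27.5% ± 0.469 in Ls-6mm and 26.7% ± 1.03 in Ls-4mm, and its library ranges overlapped. BGIOSGA009855 held 7.77% ± 0.280 in Ls-6mm and 3.35% ± 0.197 in Ls-4mm. These shares add up to the whole in each library, so that they are not independent of each other, and no test was made on them.

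**Figure D3:**
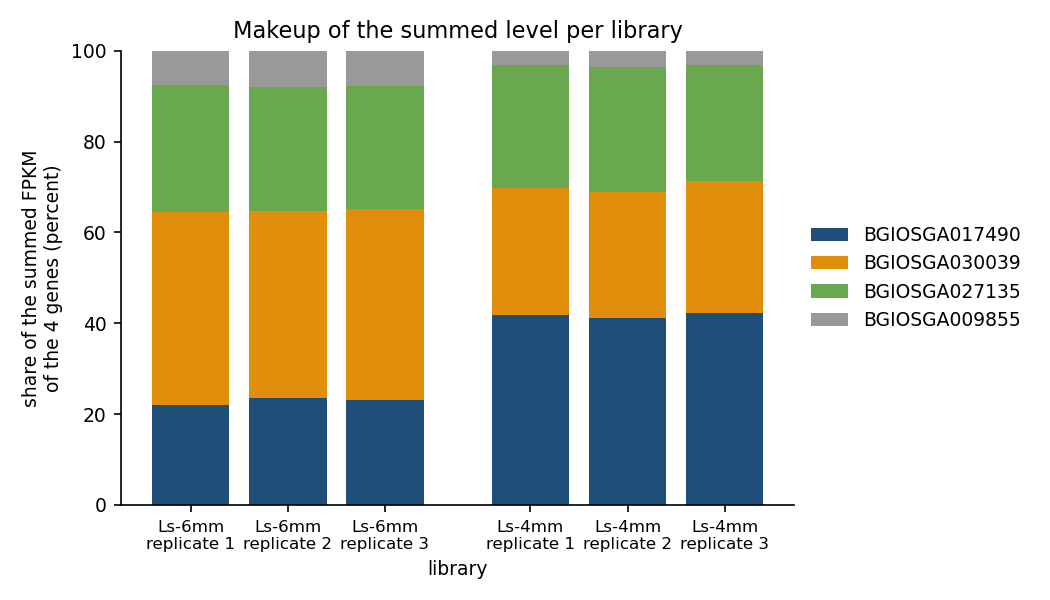
Share of the summed FPKM of the 4 genes held by each gene, in percent, stacked per library, with the 3 Ls-6mm libraries on the left and the 3 Ls-4mm libraries on the right. The share of BGIOSGA017490 is 22.9% on average in Ls-6mm and 41.7% in Ls-4mm, and that of BGIOSGA030039 is 41.9% and 28.2% at the same stages.

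Within a library, a ratio between genes does not depend on the scaling of that library. The log2 ratio of the FPKM of BGIOSGA017490 to that of BGIOSGA030039 was -0.96, -0.80 and -0.86 in Ls-6mm, against 0.58, 0.58 and 0.54 in Ls-4mm. It was below 0 in each Ls-6mm library and above 0 in each Ls-4mm library, a turn of the order of the 2 genes. The log2 ratio of BGIOSGA017490 to BGIOSGA027135 turned in the same way, at -0.35, -0.21 and -0.23 in Ls-6mm and 0.63, 0.59 and 0.73 in Ls-4mm. BGIOSGA030039 exceeded BGIOSGA027135 in all 6 libraries, with a log2 ratio of 0.61, 0.59 and 0.63 in Ls-6mm and of 0.05, 0.01 and 0.19 in Ls-4mm. In Ls-4mm the FPKM ranges of these 2 genes overlapped over the libraries, with a ratio of means of 1.06, and so they were not ordered beyond their spread. All other neighbours in the order of levels were separated at both stages.

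One more gene has the same enzyme in its description under another name. BGIOSGA004052, on the plus strand of chromosome 1 from 28487624 to 28491651, is described as ADP-glucose pyrophosphorylase large subunit and was singled out after its values were seen. It had 37.61, 40.21 and 38.07 FPKM in Ls-6mm, against 19.86, 19.01 and 18.11 FPKM in Ls-4mm. Every Ls-6mm library was above every Ls-4mm library, the opposite of the other genes of the enzyme. Counts were 1023, 1325 and 1007 in Ls-6mm and 478, 524 and 485 in Ls-4mm, and the log2 fold change was 1.07 (SE 0.06, adjusted p = 1.65e-11, edgeR).

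With BGIOSGA004052 included, the order of the levels per length in Ls-6mm was BGIOSGA030039, BGIOSGA004052, BGIOSGA027135, BGIOSGA017490 and BGIOSGA009855, and none of these neighbours overlapped. In Ls-4mm it was BGIOSGA017490, then BGIOSGA030039 and BGIOSGA027135, then BGIOSGA004052 and BGIOSGA009855. BGIOSGA004052 held 23.7% ± 0.785 of the summed FPKM of the 5 genes in Ls-6mm and 4.78% ± 0.0941 in Ls-4mm (SD, n = 3 each). The log2 ratio of BGIOSGA017490 to BGIOSGA004052 was -0.44, -0.46 and -0.41 in Ls-6mm and 3.06, 3.01 and 3.10 in Ls-4mm, the widest shift among the 5 gene pairs compared. The sum of the 5 genes was 163.3 ± 1.07 FPKM in Ls-6mm and 397.7 ± 15.3 FPKM in Ls-4mm, or 41.1% of the Ls-4mm level.

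The genes around ADP-glucose were taken as lists of words in the descriptions, and their counts stand beside 42.0% of all tested genes called higher and 38.6% called lower. Upstream, glucose-6-phosphate isomerases, which interconvert the phosphates of fructose and glucose, had 3 of 4 tested genes lower and 0 higher, and their median on the log2 scale was -0.51. The most abundant of them, BGIOSGA029619, had 61.3 ± 2.16 FPKM in Ls-6mm and 84.6 ± 1.43 FPKM in Ls-4mm. BGIOSGA013652 fell the most, with a log2 fold change of -0.65 (SE 0.05). The 3 genes described as phosphoglucomutase, the enzyme that makes glucose-1-phosphate, had no counts in any library. They are short models, of 591, 735 and 420 coding bases, listed outside the numbered chromosomes. Other genes of the same PGM_PMM family had counts and are given under the other observations.

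Inorganic pyrophosphatases, which split the pyrophosphate that the enzyme releases, had 4 of 6 tested genes higher and 2 lower, with a median of 1.39. The most abundant in Ls-6mm, the soluble pyrophosphatase BGIOSGA005774, had 582 ± 12.0 FPKM in Ls-6mm and 219 ± 9.47 FPKM in Ls-4mm, a log2 fold change of 1.45 (SE 0.04). BGIOSGA000012 rose the most in this list, to 50.4 ± 1.59 FPKM in Ls-6mm, against 4.58 ± 1.07 FPKM in Ls-4mm. BGIOSGA014044, the most abundant in Ls-4mm, fell by 0.99, with 185.3 ± 3.01 FPKM in Ls-6mm and 379.5 ± 9.88 FPKM in Ls-4mm. The members of this list did not move one way.

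The route from sucrose runs through sucrose synthase, which yields UDP-glucose, and UDP-glucose pyrophosphorylase, which turns UDP-glucose into glucose-1-phosphate. Of 5 tested sucrose synthases, 3 were higher and 1 was lower. BGIOSGA010570 was by far the most abundant, with 1003 ± 7.03 FPKM in Ls-6mm and 865 ± 7.46 FPKM in Ls-4mm, BGIOSGA026140 rose by 4.10 on the log2 scale at a low level, and BGIOSGA021739 fell by 0.25. BGIOSGA031231 was the only gene that the words for UDP-glucose pyrophosphorylase matched, and others may lack a description. It had 446 ± 5.84 FPKM in Ls-6mm and 325 ± 4.11 FPKM in Ls-4mm, a log2 fold change of 0.50 (SE 0.03). It was above the sum of the 4 ADP-glucose pyrophosphorylase genes in Ls-6mm and below that sum in Ls-4mm.

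Downstream, 6 of 9 starch synthases, which lengthen the glucan chain from ADP-glucose, were lower and 3 were higher, with a median of -0.64, beside 38.6% lower and 42.0% higher over all tested genes. BGIOSGA024424 was the most abundant in Ls-4mm and the one that fell the most, with 9.649, 8.585 and 7.442 FPKM in Ls-6mm, against 106.1, 101.3 and 109.7 FPKM in Ls-4mm. Its stages were far apart, and its log2 fold change of -3.58 (SE 0.07, adjusted p = 8.22e-18, edgeR) was a larger fall than that of BGIOSGA017490. BGIOSGA022586 was at the other end of the list, with 9.516, 9.148 and 9.736 FPKM in Ls-6mm, against 0.2681, 0.3514 and 0.1446 FPKM in Ls-4mm. In Ls-6mm these 2 starch synthases were at like levels, and in Ls-4mm BGIOSGA022586 was close to 0. The most abundant starch synthase in Ls-6mm was BGIOSGA021860, with 36.26 ± 1.42 FPKM, against 60.51 ± 0.491 FPKM in Ls-4mm.

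The genes of the branch points were few. The only tested gene described as a starch branching enzyme, BGIOSGA006344, had 6.86 ± 0.159 FPKM in Ls-6mm and 1.89 ± 0.412 FPKM in Ls-4mm, a log2 fold change of 1.89 (SE 0.13). The other branching enzymes that the words matched are Core-2/I-branching enzymes, a family known for branching the glycans of animal proteins, and 13 of 14 tested were higher and 0 lower. Their most abundant gene, BGIOSGA016677, had a log2 fold change of 0.48. Isoamylase, which trims the branches of growing starch, was represented by BGIOSGA026650, which rose by 0.74 on the log2 scale (SE 0.06), to 29.6 ± 1.70 FPKM in Ls-6mm, against 18.3 ± 1.46 FPKM in Ls-4mm.

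Glucan phosphorylases and 4-alpha-glucanotransferase, which exchange and rearrange glucose units of glucan chains, were the list around ADP-glucose whose tested genes were all called lower, 3 of 3. Their median log2 fold change was -2.11, and 38.6% of all tested genes were called lower. The phosphorylase BGIOSGA009780 had 50.04, 49.71 and 49.2 FPKM in Ls-6mm, against 227.4, 211.9 and 223.3 FPKM in Ls-4mm. Its stages did not overlap, and its log2 fold change of -2.11 (SE 0.04, adjusted p = 5.06e-18, edgeR) was a smaller fall than that of BGIOSGA017490. The glucanotransferase BGIOSGA026185 fell by 2.53 on the log2 scale.

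Beta-amylases, which release maltose from starch, had 5 of 10 tested genes higher and 3 lower, counts near the 42.0% higher and 38.6% lower over all tested genes. The widest changes in this list were in genes under 10 CPM at both stages, which the rule for named genes left out. Of these, BGIOSGA023752 had 158, 192 and 145 counts in Ls-6mm, against 0, 0 and 1 in Ls-4mm, BGIOSGA025892 had 20, 42 and 30 counts in Ls-6mm, against 1, 1 and 2 in Ls-4mm, and BGIOSGA025894 fell by 0.68 on the log2 scale. Above that level BGIOSGA012615 rose by 1.86 and BGIOSGA007458 fell by 0.36, and they had the highest FPKM of the list in Ls-6mm and in Ls-4mm respectively. BGIOSGA031300 led only in the mean FPKM over all libraries and had a log2 fold change of 0.43. Of 9 alpha-amylases 1 had enough counts to be tested, BGIOSGA030906, which was not called, with a log2 fold change of -0.55 (SE 0.31, adjusted p = 0.109, edgeR). Over all these lists, 32 of 57 tested genes were higher and 18 lower, with a median of 0.44, and without the Core-2/I-branching enzymes, left out after the values were seen, 19 of 43 were higher and 18 lower, with a median of -0.04. The second pair of counts is near the share over all tested genes, 42.0% higher and 38.6% lower.

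**Figure D4:**
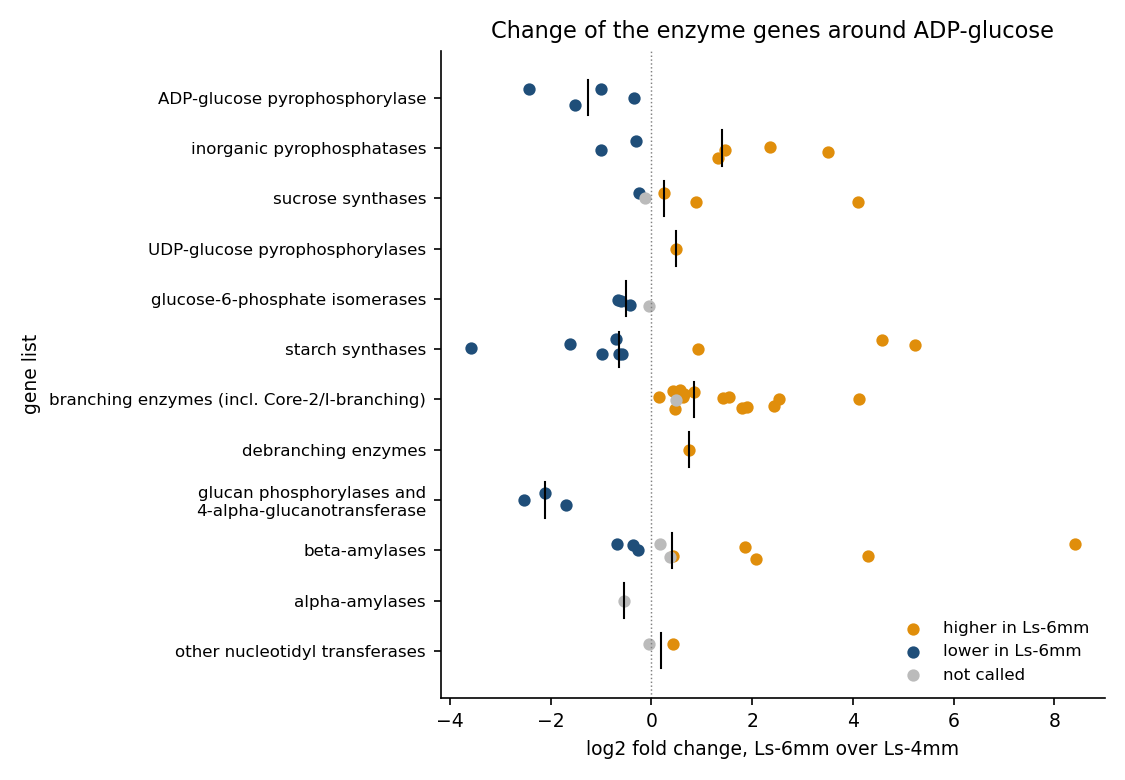
Log2 fold change, Ls-6mm over Ls-4mm, of each tested gene (points) in ADP-glucose pyrophosphorylase and in the lists of enzymes around it, coloured by the call of edgeR, with a black bar at the median of each list and a small vertical scatter for legibility. The 4 ADP-glucose pyrophosphorylase genes have a median of -1.26, glucan phosphorylases and 4-alpha-glucanotransferase -2.11, and starch synthases -0.64 with genes on both sides of 0.

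The genes whose pattern over the 6 libraries was nearest to each of the 4 genes were found among 6452 described genes with at least 10 CPM in the higher stage, by the root mean square difference of gene-centred log2 CPM. With only 2 stages this likeness mostly reflects an equal fold change. Nearest to BGIOSGA017490 were the kinesin-like protein BGIOSGA035830, at a distance of 0.0376 log2 units, a DNA polymerase, BGIOSGA000426, at 0.0449, and BGIOSGA034224 with a ZF-HD dimerisation region at 0.054. Nearest to BGIOSGA030039 were methionine aminopeptidase BGIOSGA033251 at 0.0211, ribosomal protein L37 BGIOSGA027921 at 0.0225 and the homeobox gene BGIOSGA023211 at 0.0233. None of the 12 genes nearest to the 4 genes belongs to a list of enzymes around ADP-glucose. Those lists hold only 57 tested genes, few beside the 6452 compared, so little can be read from this. For BGIOSGA027135 the nearest genes were BGIOSGA014111 of the uracil DNA glycosylase superfamily, BGIOSGA016601 of the RNase H2 complex and the arginine N-methyltransferase BGIOSGA029907, at distances from 0.0333 to 0.0425. For BGIOSGA009855 they were BGIOSGA018795 with an alanine racemase domain, the rhomboid-like BGIOSGA002775 and BGIOSGA011278 with a PCI domain, at distances from 0.0245 to 0.0333.

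Lists of genes matched by words in their descriptions and named after cell types or tissues also differed between the stages. Such words were strictosidine synthase for tapetum, HORMA for meiocytes, photosystem for green tissue and Ole e for pollen. In the paper's staging meiosis and pollen come after Ls-6mm, and the lists were not checked as markers of cells present. Tapetum and sporopollenin genes, of which 26 of 31 had counts, summed to 766.5 to 789.5 CPM in Ls-6mm and 205.4 to 240.0 CPM in Ls-4mm. Of 19 tested, 16 were higher and 1 was lower, beside 42.0% higher over all tested genes. A large part of this sum was the strictosidine synthase BGIOSGA009804, with a mean of 466.2 CPM in Ls-6mm and 110.8 CPM in Ls-4mm. Meiocyte genes, of which 8 of 9 had counts, summed to 57.12 to 63.26 CPM in Ls-6mm and 112.0 to 124.8 CPM in Ls-4mm. Of 8 tested, 4 were lower, 1 was higher and 3 were not called, beside 38.6% lower over all tested genes. The fall in this sum rested largely on the HORMA gene BGIOSGA014841, with a mean of 9.52 CPM in Ls-6mm and 56.0 CPM in Ls-4mm. Genes of green tissue, 45 of 46 with counts, summed to 5235 to 5454 CPM in Ls-6mm and 2176 to 2514 CPM in Ls-4mm, with 36 of 41 tested higher and 4 lower. Genes matched by the words pollen or Ole e, 78 of 105 with counts, summed to 14720 to 15190 CPM in Ls-6mm and 1257 to 1419 CPM in Ls-4mm. Of 46 tested, 33 were higher and 7 were lower. These words do not make each of them a pollen protein. BGIOSGA009041, described by a pollen allergen and a lytic transglycolase domain, was among the lower ones, with a log2 fold change of -1.35. The summed levels of the 4 lists did not overlap between the stages, but such a sum can be carried by a few abundant genes. Their part in the differences of the ADP-glucose pyrophosphorylase genes was not tested.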

How the data were processed

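Messenger RNA of anthers was sequenced as paired-end reads and aligned by the authors with HISAT2 2.0.5, and featureCounts 1.5.0-p3 is named in the notes on processing by the submitters. The deposited count values are raw whole numbers per gene. The deposited FPKM values are scaled by coding length and by a library size factor. The sources used here do not state whether counting used strand. The assembly behind the positions is unclear, so they are printed as listed. The table also holds columns of the authors' comparisons, which were not used, and 36 columns of other samples, also not used.

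Counts of 6 libraries were fitted with edgeR 4.0.16 under R 4.3.3 (filterByExpr with a minimum count of 10 and a minimum total count of 15, TMM scaling, quasi-likelihood fit with stage as the only term). P-values were adjusted by Benjamini-Hochberg over 23691 genes, and an adjusted p under 0.05 at any fold change made a call. Fold changes are Ls-6mm over Ls-4mm. CPM were scaled by TMM. Levels of different genes were compared per length, in FPKM. A count of 0 in all 3 libraries allows up to 3 counts per stage, or 0.0563 CPM in Ls-6mm and 0.0605 CPM in Ls-4mm, for counting error only.

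The genes and lists were chosen with earlier results of these data known. Named besides the 4 genes were, of each list, the gene with the highest mean FPKM and the called genes with the largest rise and the largest fall among those with at least 10 CPM in the higher stage, and the 3 genes nearest in pattern to each of the 4 genes. No gene matched the words for glucan water dikinases, hexokinases and fructokinases or plastid transporters. Alternatives were DESeq2 1.42.0, RLE size factors, a minimum of 10 counts in every library, no filter, library size only, a stricter threshold, a replicate block, limma 3.58.1 on log2(FPKM + 1) and log2(FPKM + 0.1), shares of summed CPM and each library left out in turn.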

Additional observations from a re-analysis of the deposited data

How the results depend on the processing

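All 4 ADP-glucose pyrophosphorylase genes were lower in Ls-6mm and called under every alternative but the stricter threshold. With an FDR of at most 0.001 and at least a 2-fold change, 2 were called lower, BGIOSGA030039 (log2 fold change -0.99) and BGIOSGA009855 (-0.35) not. Calls over all 23691 tested genes then came to 5591 higher and 3145 lower, the latter 13.3%. In the enzyme lists, Core-2/I-branching enzymes included, they came to 18 higher and 5 lower of 57 tested. Over all alternatives the log2 fold change ran from -2.56 to -2.37 for BGIOSGA017490, from -1.66 to -1.46 for BGIOSGA027135, from -1.13 to -0.93 for BGIOSGA030039 and from -0.48 to -0.28 for BGIOSGA009855, whose largest adjusted p was 0.00627. Scaling by library size only put the median of all genes at -0.10, against 0.04 with TMM, and BGIOSGA009855 at -0.48. With the replicate number as a replicate block the log2 fold changes were -2.43, -1.52, -0.99 and -0.35, and no call on the 4 genes was lost. The deviations of same-numbered libraries from their stage means correlated with r from -0.0283 to -0.00884, against -0.0081 to 0.0201 for different numbers. These values show no pairing by number, but whether libraries share plants cannot be told from them. Without the Core-2/I-branching enzymes, at an adjusted p under 0.05 (edgeR), 19 of 43 tested genes of the enzyme lists were higher and 18 lower. With BGIOSGA004052 in the sum, shares in Ls-6mm and Ls-4mm were 17.5% and 39.8% for BGIOSGA017490, 32.0% and 26.9% for BGIOSGA030039, and 21.0% and 25.4% for BGIOSGA027135, and that of BGIOSGA009855 in Ls-6mm was 5.93%. Of summed CPM, BGIOSGA017490 held 42.3% in Ls-4mm. Depth limits BGIOSGA009855 most, with 824 counts in Ls-6mm and 974 in Ls-4mm over the 3 libraries.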

Other observations

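Genes of the PGM_PMM family, which holds phosphoglucomutases and phosphomannomutases and was added after the values were seen, had 4 tested genes, of which 2 were higher and 1 lower in Ls-6mm. BGIOSGA013440, without a description, had 314 ± 4.80 FPKM in Ls-6mm and 225 ± 2.91 FPKM in Ls-4mm, a log2 fold change of 0.52. BGIOSGA032204 had 14.2 ± 0.577 FPKM in Ls-6mm and 67.2 ± 2.45 FPKM in Ls-4mm, a log2 fold change of -2.20. Of the other nucleotidyl transferases, 1 of 2 tested was higher, BGIOSGA011238, with a log2 fold change of 0.43.

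None of the 4 ADP-glucose pyrophosphorylase genes overlapped another gene model. The nearest model at the lower coordinate of BGIOSGA027135, at a gap of 3314 bases, was BGIOSGA028505, described as the alpha subunit of pyrophosphate-fructose 6-phosphate 1-phosphotransferase, a glycolytic enzyme that uses pyrophosphate, and it fell by 0.32 on the log2 scale. Next to BGIOSGA009855, at 657 bases, the GATA transcription factor gene BGIOSGA009856 had a log2 fold change of 0.65, against -0.35 for BGIOSGA009855 itself. The table leaves 29049 of its 46327 genes without a description, so further genes of the enzyme may be among them.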
